A study of Rattus norvegicus with 6 samples.

Results

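The transcripts described here come from the mitochondrial genome. The deposited expression table holds 32930 gene rows, and the 37 rows whose gene name starts with mt- were taken, 13 mRNAs, 2 rRNAs and 22 tRNAs. All 37 lie on the chromosome the table names MT, and no other row does. Liver RNA was sequenced from 3 animals of the HFD group and 3 animals of the HTG group. The HFD animals received a high-fat diet and the vehicle, 0.5% CMC-Na. The HTG animals received the same high-fat diet and HTG, the Huazhuo Tiaozhi granule, a herbal preparation that the treatment label spells HCG, and the design text gives 12 weeks of intervention. For rats the methods describe HTG gavage over only the later part of the diet period. A group on normal diet was not analysed here, so both groups carry the diet and the comparison asks how liver RNA differed with HTG on top of it. The labels call the animals rats, the paper's RNA-seq methods name C57BL/6 J mice, and the gene rows carry mouse Ensembl identifiers and mouse gene names, and they were treated here as mouse genes. The animals' age is not given in the sources used here.

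Mitochondria keep a small circular DNA of their own. Both of its strands are transcribed as long precursors that run through many genes, and the tRNAs that lie between the other genes mark most of the places where the precursor is cut. The mRNAs encode core subunits of respiratory complexes I, III and IV and of ATP synthase, the rRNAs form the mitochondrial ribosome, and the tRNAs serve its translation. Every other subunit, and every protein that copies, transcribes or cuts this genome, is encoded in the nucleus. The liver is rich in mitochondria, which burn fatty acids and house steps of the urea cycle. In mammals most of the mRNAs carry poly(A) tails, the rRNAs carry short ones, and mature tRNAs carry none. The mRNA of the light strand, mt-Nd6, is known as an exception with a very short tail or none.

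Poly(A) RNA was used for these libraries, so the rRNA and tRNA rows count what came through that step and are kept apart from the mRNAs. Each gene has an estimated count and an FPKM value in each library, the latter of which relates fragments to transcript length and library size. The estimated counts of all genes summed to between 50648778 and 90563477 per library. Tests used the counts, and CPM below are the counts after TMM scaling of each library's total to a common size. FPKM is used where genes are ordered by level per length. Ratios between genes are of counts, which are not corrected for length, unless FPKM is named. Of the 37 rows, 34 passed the filter on low counts. The tRNA rows mt-Tf, mt-Tv and mt-Tk did not, with between 2 and 11 counts in every library. The table lists 12 mRNAs, both rRNAs and 14 tRNAs on its + strand, the genes named for the heavy strand, and mt-Nd6 and 8 tRNAs on its - strand, named for the light strand. The methods describe strand-marked libraries and the labels name a NEBNext Ultra kit, and neither says if strand was used in counting. Where genes lie opposite each other, their reads could then not be told apart.

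The mitochondrial mRNAs stood higher in the HTG livers. Of all counts, the 13 mRNAs held 6.31%, 4.82% and 5.18% in HFD libraries 1, 2 and 3. They held 9.12%, 14.9% and 12.98% in the corresponding HTG libraries. Every HTG library was above every HFD library, and HTG library 1 was the lowest of its group. The mean share was 5.44% ± 0.777 in the HFD group and 12.3% ± 2.95 in the HTG group (SD, n = 3 each), a log2 ratio of 1.18. As a share of summed FPKM, the mRNAs took a mean of 12.7% ± 1.45 and 23.5% ± 4.43, a log2 ratio of 0.89. These are shares of bulk liver RNA, in which fewer cells of a type and less RNA per cell cannot be told apart.

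All 13 mRNAs were higher in HTG at an unadjusted p under 0.05 in edgeR's quasi-likelihood test, and none was lower. Of the 18455 genes tested, 12.3% were higher by that rule and 12.4% were lower. None of the 13 passed an adjusted p of 0.05 (edgeR, Benjamini-Hochberg over all genes tested), where they held values between 0.0538 and 0.0873. By that rule 1 gene of the whole table was higher in HTG, 0.00542% of those tested. In DESeq2 all 13 had an adjusted p under 0.05, the largest at 0.00307, against 7.65% of the 14491 genes that DESeq2 adjusted. The median log2 fold change of the 13, as HTG over HFD, was 1.21 with a range of 1.08 to 1.51, beside a median of 0.03 over all genes tested. For all 13 the 3 HTG libraries lay above the 3 HFD libraries in CPM, an order that 16.5% of all genes tested showed. The design names 6 animals for the 6 libraries, so the p-values rest on the spread between 3 animals a group. Leaving out HTG library 1, the lowest HTG library for 13 of 13 mRNAs, brought all 13 past the adjusted threshold with a median of 1.34, while leaving out any other library left 0 past it with medians between 1.12 and 1.24.

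**Figure D1:**
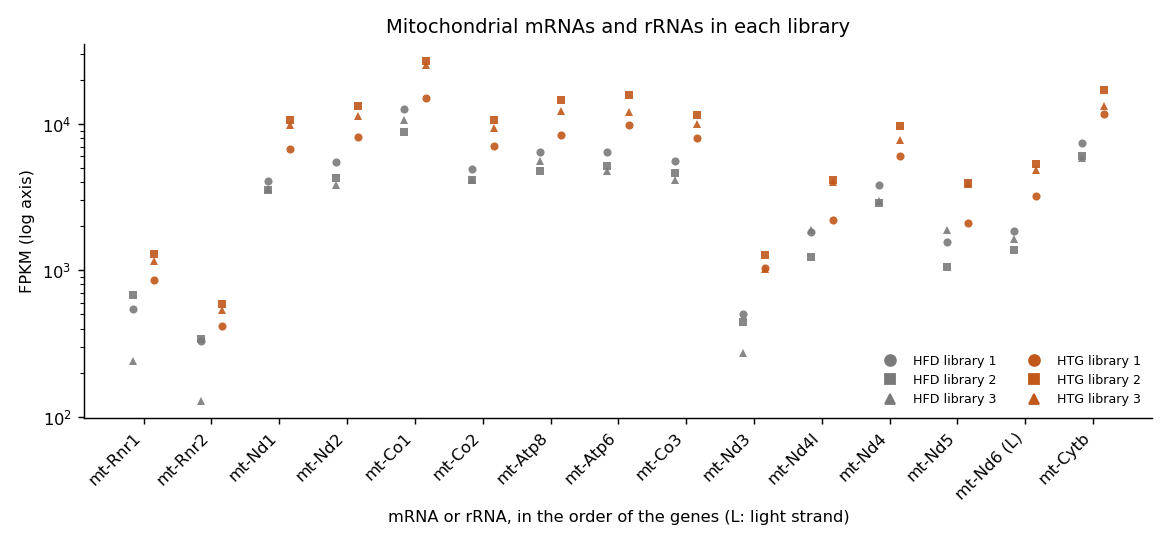
FPKM (log axis) of the 13 mRNAs and 2 rRNAs in each library, in the order of the genes, with HFD in grey, HTG in orange and a marker shape for each library number. The HTG points lie above the HFD points in every column, mt-Co1 is highest and the rRNA mt-Rnr2 is lowest.

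Complex I, the NADH dehydrogenase that starts the respiratory chain, holds 7 of the encoded subunits. Their log2 fold changes had a median of 1.32 and ran from 1.12 to 1.51. mt-Nd1 (MT, 2751 to 3707, + strand) had 3877, 3746 and 3484 CPM in the HFD libraries, in the order 1, 2 and 3, and 6905, 10038 and 10733 CPM in the HTG libraries. Here the log2 fold change was 1.32 with a standard error (SE) of 0.26 and an adjusted p of 0.0582 in edgeR's quasi-likelihood test. The lowest HTG library was well above the highest HFD library. mt-Nd2 (3914 to 4951, +) had 5661, 4935 and 4012 CPM in HFD and 9093, 13536 and 13519 CPM in HTG, a log2 fold change of 1.31 (SE 0.28, adjusted p = 0.0605 in edgeR). HTG libraries 2 and 3 were nearly level. mt-Nd4 (10167 to 11544, +) had 5228, 4371 and 4144 CPM in HFD and 8879, 13124 and 12332 CPM in HTG, a log2 fold change of 1.32 (SE 0.27, adjusted p = 0.0582 in edgeR). Its start overlaps the end of mt-Nd4l by 7 bases, and the 2 reading frames are known to share 1 mRNA.

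mt-Nd4l (9877 to 10173, +) had 541, 403 and 565 CPM in HFD and 699.9, 1221 and 1361 CPM in HTG. The gap between HFD library 3 and HTG library 1 was narrow, and the log2 fold change was 1.12 (SE 0.30, adjusted p = 0.0758 in edgeR). mt-Nd5 (11742 to 13565, +), the longest mRNA at 1824 bases, had 2835, 2118 and 3444 CPM in HFD and 4126, 7076 and 8163 CPM in HTG, a log2 fold change of 1.21 (SE 0.33, adjusted p = 0.0820 in edgeR). For both of these mRNAs HFD library 3 was the highest HFD library, whereas HFD library 1 was the highest for the other 11.

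mt-Nd3 (9459 to 9806, +) was the least abundant mRNA, with 175, 171 and 94.96 CPM in HFD and 389, 436 and 411 CPM in HTG. Its HTG libraries were close together, and the log2 fold change was 1.49 (SE 0.27, adjusted p = 0.0553 in edgeR). mt-Nd6 (13552 to 14070, -) is the only mRNA of the light strand. Its count, like those of the rRNAs, depends on what came through poly(A) selection. It had 954, 785 and 857 CPM in HFD and 1787, 2718 and 2901 CPM in HTG. Its log2 fold change of 1.51 was the largest of the 34 tested rows, with an SE of 0.26 and an adjusted p of 0.0538 in edgeR's quasi-likelihood test. Its p was the smallest of the members and stood at place 113 among all genes tested.

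Complex III passes electrons from ubiquinol to cytochrome c, and cytochrome b is its mitochondrially encoded subunit. mt-Cytb (14145 to 15288, +) had 8394, 7680.1 and 6726 CPM in HFD and 14235, 19373 and 17413 CPM in HTG. The groups were far apart, with a log2 fold change of 1.16 (SE 0.26, adjusted p = 0.0612 in edgeR).

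Complex IV, cytochrome c oxidase, reduces oxygen to water, and its 3 encoded subunits had log2 fold changes from 1.08 to 1.12. mt-Co1 (5328 to 6872, +), the catalytic subunit, had 19497, 14989 and 16620.3 CPM in HFD and 24844, 41117 and 44789 CPM in HTG. HTG library 1 stood between the HFD libraries and the other HTG libraries. The log2 fold change was 1.12 (SE 0.32, adjusted p = 0.0873 in edgeR), the largest adjusted p of the 13. mt-Co2 (7013 to 7696, +), which takes the electrons from cytochrome c, had 3347, 3113 and 2839 CPM in HFD and 5218, 7237 and 7350.1 CPM in HTG, a log2 fold change of 1.09 (SE 0.25, adjusted p = 0.0613 in edgeR). mt-Co3 (8607 to 9390, +) had 4383, 4014 and 3250.1 CPM in HFD and 6715, 8909 and 9061 CPM in HTG, a log2 fold change of 1.08 (SE 0.26, adjusted p = 0.0634 in edgeR), the smallest of the mRNAs.

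ATP synthase makes ATP from the proton gradient, and its 2 encoded subunits belong to the part in the membrane. mt-Atp8 (7766 to 7969, +), the shortest mRNA row at 204 bases, had 1306, 1072 and 1138 CPM in HFD and 1825, 2926 and 2862 CPM in HTG. mt-Atp6 (7927 to 8607, +) had 4362, 3896 and 3245 CPM in HFD and 7226, 10541 and 9485 CPM in HTG. The log2 fold changes were 1.11 for mt-Atp8 (SE 0.26, adjusted p = 0.0622 in edgeR) and 1.24 for mt-Atp6 (SE 0.26, adjusted p = 0.0604 in edgeR). The 2 rows overlap by 43 bases and are known to share 1 mRNA. The count of mt-Atp8 was 29.9%, 27.5% and 35.1% of that of mt-Atp6 in HFD and 25.3%, 27.8% and 30.2% in HTG, and the groups overlapped. In FPKM, which corrects for length, mt-Atp8 stood at 99.9%, 91.9% and 117% of mt-Atp6 in HFD. The HTG libraries had 84.3%, 92.6% and 101%.

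Compared per length, the mRNAs kept a similar order in every library. By mean FPKM over the 6 libraries mt-Co1 led with 16542, followed by mt-Cytb with 10207 and mt-Atp6 with 9000.03. mt-Nd3 was last with 760. mt-Co1, mt-Cytb and mt-Nd3 held these places in all 6 libraries. Some neighbours could not be ordered: mt-Atp6 was above mt-Atp8 in 4 of 6 libraries, and mt-Nd2 was above mt-Co3 in 3 of 6. mt-Co3 over mt-Co2, mt-Co2 over mt-Nd1, and mt-Nd6 over mt-Nd4l each held in 5 of 6. Among all 32930 rows, mt-Co1 ranked between place 1 and place 3 by FPKM, and mt-Cytb between 3 and 6. Of the 20 rows with the highest FPKM, 8, 7 and 8 were mitochondrial mRNAs in HFD libraries 1, 2 and 3, and 9, 10 and 9 in the HTG libraries.

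Within the mRNAs the make-up differed little between the groups. mt-Co1 supplied between 27.0% and 33.0% of the counts of the 13 in each library and mt-Cytb between 12.4% and 15.5%, and for both the groups overlapped. Of the 7 complex I mRNAs, 3 took a larger part in every HTG library than in any HFD library. The other 10 mRNAs, the rest of complex I among them, overlapped. For mt-Nd2 the gap was very narrow, from 9.62% in HFD library 2 to 9.63% in HTG library 3. mt-Nd2 took 8.98% ± 0.892 in HFD and 9.77% ± 0.131 in HTG, and mt-Nd4 took 8.46% ± 0.214 and 9.31% ± 0.464 (mean ± SD, n = 3 each). mt-Nd6 took 1.603% ± 0.0877 and 1.99% ± 0.0654. As a percentage of the counts of the 12 heavy-strand mRNAs, mt-Nd6 was at 1.601%, 1.56% and 1.73% in HFD and at 1.98%, 2.01% and 2.11% in HTG. This ratio within a library does not depend on scaling between libraries, and its log2 ratio of 0.32 lay between 0.29 and 0.37 when each library was left out. mt-Nd6 lies opposite 14 bases of mt-Nd5, and the rest of its row is also covered by the heavy-strand precursor, whose reads were not told apart if the counting ignored the strand.

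Position along the genome went with neither level nor fold change in a clear way. Across the 12 heavy-strand mRNAs, start position and log2 fold change had a Pearson r of -0.11 and a Spearman rho of 0.08. Start position and log2 mean FPKM had an r of -0.30 and a rho of -0.30. These are descriptions over genes of the same 6 libraries, which share depth and RNA.

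**Figure D2:**
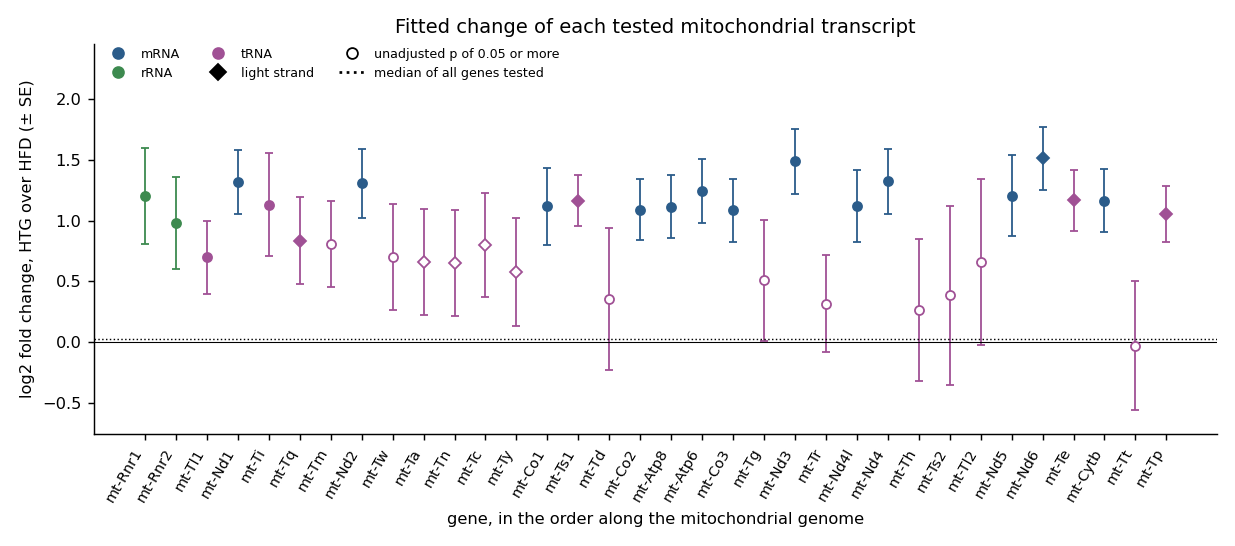
Log2 fold change (HTG over HFD, ± SE, from edgeR) of the 34 tested mitochondrial rows in the order of the genes, with mRNAs in blue, rRNAs in green and tRNAs in purple. Diamonds mark the light strand, open symbols an unadjusted p of 0.05 or more, and the dotted line the median of all genes tested. The mRNAs form a band between 1.08 and 1.51, and the tRNAs spread from -0.03 to 1.17 with larger errors.

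The rRNAs came through poly(A) selection at a small fraction of the mRNA counts and were also higher in HTG. mt-Rnr1, the rRNA of the small ribosomal subunit (70 to 1024, +), had 515, 718 and 229.9 CPM in HFD and 873, 1223 and 1273 CPM in HTG. mt-Rnr2, the rRNA of the large subunit (1094 to 2675, +), had 521, 589.8 and 205 CPM in HFD and 705, 916 and 968 CPM in HTG. The groups did not overlap for either, an order that 16.5% of all genes tested showed, and HFD library 3 was far below the other HFD libraries for both. Both were past an unadjusted p of 0.05 in edgeR, where 12.3% of all genes tested were higher. The log2 fold changes were 1.20 for mt-Rnr1 (SE 0.40, adjusted p = 0.114 in edgeR's quasi-likelihood test) and 0.98 for mt-Rnr2 (SE 0.38, adjusted p = 0.158 in edgeR's quasi-likelihood test). In DESeq2 the adjusted p was 0.0154 for mt-Rnr1 and 0.0488 for mt-Rnr2, and 7.65% of the genes it adjusted were higher at an adjusted p under 0.05. Without HFD library 3 the median of the pair went from 1.09 to 0.75. mt-Rnr2 was no longer past an unadjusted 0.05 without HTG library 2 (log2 fold change 0.93) or without HTG library 3 (0.89).

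The rRNAs did not separate from the mRNAs in their balance. Relative to mRNA counts, rRNA counts stood at 1.71%, 2.55% and 0.863% in HFD and at 1.72%, 1.55% and 1.597% in the HTG libraries. The HTG values lay inside the HFD range. The HFD libraries spread widely, so that the log2 ratio of the group means, -0.08, went to 0.33 without HFD library 2 and to -0.40 without HFD library 3. mt-Rnr1 counts were 99.0%, 122% and 112% of those of mt-Rnr2 in HFD and 124%, 134% and 131% in HTG, so every HTG library was above every HFD library by a small margin. In FPKM, which corrects for length, mt-Rnr1 stood at 164%, 202% and 186% of mt-Rnr2 in HFD. The HTG libraries had 205%, 221% and 218%. mt-Rnr1 and mt-Nd1, which the heavy-strand precursor joins, kept a ratio whose groups overlapped, at 13.02% ± 6.29 in HFD and 12.2% ± 0.393 in HTG (mean ± SD, n = 3 each).

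**Figure D3:**
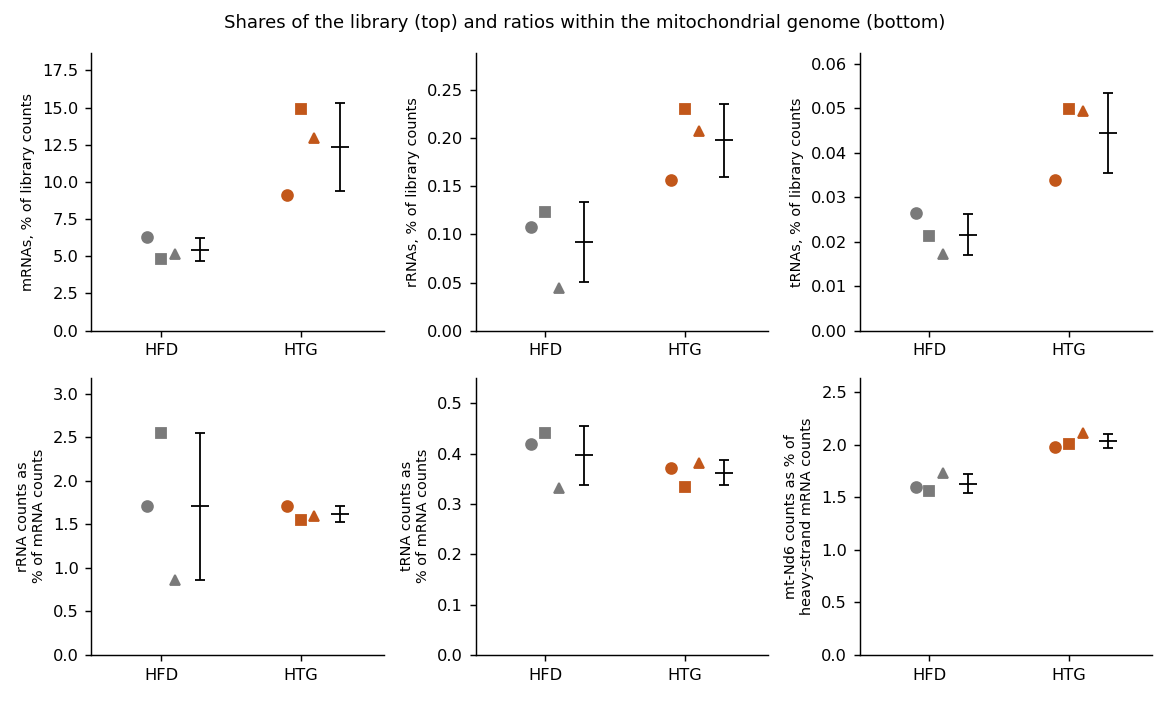
Top, the percentage of each library's counts taken by the 13 mRNAs, 2 rRNAs and 22 tRNAs. Bottom, rRNA and tRNA counts as a percentage of mRNA counts and mt-Nd6 counts as a percentage of heavy-strand mRNA counts, each axis from 0. Circles, squares and triangles are libraries 1, 2 and 3, and bars are the mean ± SD of 3 libraries. The groups separate in the top row and for mt-Nd6, and overlap in the other ratios.

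The tRNAs were less uniform. In percent of library counts, the 22 rows together made up 0.0264%, 0.0213% and 0.0171% in HFD and 0.0339%, 0.0499% and 0.0494% in HTG. The groups did not overlap. Of the 19 tRNAs tested, 6 were higher at an unadjusted p under 0.05 and 0 were lower in edgeR's quasi-likelihood test, where 12.3% of all genes tested were higher. None passed an adjusted 0.05 in edgeR, while 3, mt-Ts1, mt-Te and mt-Tp, did so in DESeq2, beside 7.65% of the 14491 genes that DESeq2 adjusted. Of the tested tRNAs, DESeq2 gave no adjusted p for mt-Td, mt-Ts2, mt-Tl2 and mt-Tt. The median log2 fold change of the 19 was 0.66, and 18 of them lay above 0, as did 51.6% of all genes tested. That median was 1.017 without HFD library 1 and 0.37 without HTG library 3. A tRNA row is 59 to 75 bases long, shorter than a sequencing read, and the most common count above 0 was 1 among small RNA genes of about that size but 4 over all genes. The level of a tRNA is therefore not compared with that of an mRNA, and ratios between these classes are read only across libraries.

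The 3 tRNAs with the clearest separation are listed on the light strand. Whether their reads came from that strand is not known, since the use of strand in counting is not stated. mt-Te, tRNA for glutamic acid (14071 to 14139, -), had 88.4, 91.6 and 56.2 CPM in HFD and 141, 183 and 207 CPM in HTG. mt-Ts1, a serine tRNA (6870 to 6938, -), had 75.5, 61.0 and 55.5 CPM in HFD and 117, 154 and 159 CPM in HTG. mt-Tp, for proline (15356 to 15422, -), had 13.7, 16.4 and 9.56 CPM in HFD and 22.8, 29.1 and 30.5 CPM in HTG. In all 3 the lowest HTG library was above the highest HFD library. The log2 fold changes were 1.17 for mt-Te (SE 0.25, adjusted p = 0.0605 in edgeR), 1.16 for mt-Ts1 (SE 0.21, adjusted p = 0.0550 in edgeR) and 1.06 for mt-Tp (SE 0.23, adjusted p = 0.0605 in edgeR). mt-Te and mt-Ts1 were also the most abundant tRNA rows per length, at a mean of 1098 and 898 FPKM in HFD. mt-Te lies between mt-Nd6 and mt-Cytb, and mt-Ts1 overlaps the end of mt-Co1 by 3 bases on the other strand.

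The remaining 3 tRNAs past an unadjusted 0.05 did not keep that call when single libraries were left out. mt-Ti, for isoleucine (3706 to 3774, +), had 4.43, 2.49 and 1.28 CPM in HFD and 5.07, 5.89 and 7.002 CPM in HTG, with a log2 fold change of 1.13 (SE 0.42, adjusted p = 0.149 in edgeR). Its groups did not overlap. mt-Tq, for glutamine (3772 to 3842, -), had 8.69, 4.604 and 5.46 CPM in HFD and 6.78, 10.7 and 16.1 CPM in HTG, and mt-Tl1, a leucine tRNA (2676 to 2750, +), had 18.5, 21.4 and 12.1 CPM and 17.5, 32.2 and 34.7 CPM. For both, HTG library 1 lay within the HFD range. Their log2 fold changes were 0.84 for mt-Tq (SE 0.36, adjusted p = 0.197 in edgeR) and 0.70 for mt-Tl1 (SE 0.30, adjusted p = 0.198 in edgeR). mt-Tm, for methionine, stood just outside with 0.81 (SE 0.35, adjusted p = 0.206 in edgeR). The count of tRNAs past 0.05 was 3 on leaving out HFD library 3 or either of HTG libraries 2 and 3, and 7 on leaving out HFD library 1 or HTG library 1.

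Neighbouring tRNAs were summed as runs, within which the order of the libraries differed in part from row to row. mt-Tw, mt-Ta, mt-Tn, mt-Tc and mt-Ty, which form a run between mt-Nd2 and mt-Co1, summed to 24.0, 15.6 and 9.68 CPM in HFD and 16.9, 21.3 and 40.2 CPM in HTG. HFD library 1 was above HTG libraries 1 and 2, and none of the 5 passed an unadjusted 0.05, with log2 fold changes from 0.58 for mt-Ty to 0.80 for mt-Tc. mt-Ti, mt-Tq and mt-Tm, between mt-Nd1 and mt-Nd2, summed to 29.6, 16.0 and 17.8 CPM in HFD and 24.1, 37.03 and 54.3 CPM in HTG, again with HFD library 1 as the highest of its group. mt-Th, mt-Ts2 and mt-Tl2, between mt-Nd4 and mt-Nd5, were near the bottom, at 0.749, 1.36 and 2.74 CPM in HFD and 0.976, 2.40 and 3.12 CPM in HTG. Here HFD library 3 was the highest HFD library, and the log2 fold changes were 0.26, 0.39 and 0.66, each with an SE of at least 0.58. The mRNA mt-Nd5 that follows these 3 tRNAs also had its highest HFD value in HFD library 3.

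The other tested tRNAs were sparse. mt-Tg for glycine, mt-Tr for arginine and mt-Td for aspartic acid had log2 fold changes of 0.51, 0.32 and 0.36, and their groups overlapped. mt-Tt for threonine, with 0.498 ± 0.196 CPM in HFD and 0.488 ± 0.119 CPM in HTG (mean ± SD, n = 3 each), had the only value below 0, at -0.03 (SE 0.53, adjusted p = 0.983 in edgeR). Its neighbour mt-Tp, listed on the other strand, was among the clearest. mt-Tt had only 24 to 58 counts per library, and a difference between these adjacent rows was not tested.

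By strand, 4 of the 8 light-strand tRNAs and 2 of the 11 tested heavy-strand tRNAs were higher at an unadjusted p under 0.05 in edgeR, with median log2 fold changes of 0.82 and 0.51. Of all genes tested, 12.3% were higher by this rule, and the heavy-strand count is near that share. The groups did not overlap for 3 light-strand tRNAs and for 1 heavy-strand tRNA, beside 16.5% of all genes tested. Light-strand tRNA counts were 469%, 499% and 434% of heavy-strand tRNA counts in HFD and 767%, 598% and 544% in HTG, so every HTG library was higher. Of all mitochondrial counts, light-strand tRNAs held 0.320% ± 0.0480 in HFD and 0.306% ± 0.0220 in HTG (mean ± SD, n = 3 each), with overlap. Heavy-strand tRNAs held 0.0682% ± 0.00604 and 0.0490% ± 0.00815, lower in every HTG library, so the tRNA ratio differed on its heavy-strand side, whereas for mt-Nd6 its own share was higher. Both ratios rest on a strand assignment that is not stated. Each tRNA strand sum also came mostly from 2 rows. In HFD library 1, mt-Tl1 and mt-Tm held 1261 and 1123 of the 3031 heavy-strand tRNA counts. There mt-Te and mt-Ts1 held 6019 and 5142 of the 14216 light-strand tRNA counts. The tRNA counts as a percentage of mRNA counts were 0.418%, 0.441% and 0.331% in HFD and 0.372%, 0.334% and 0.380% in HTG, and the groups overlapped.

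**Figure D4:**
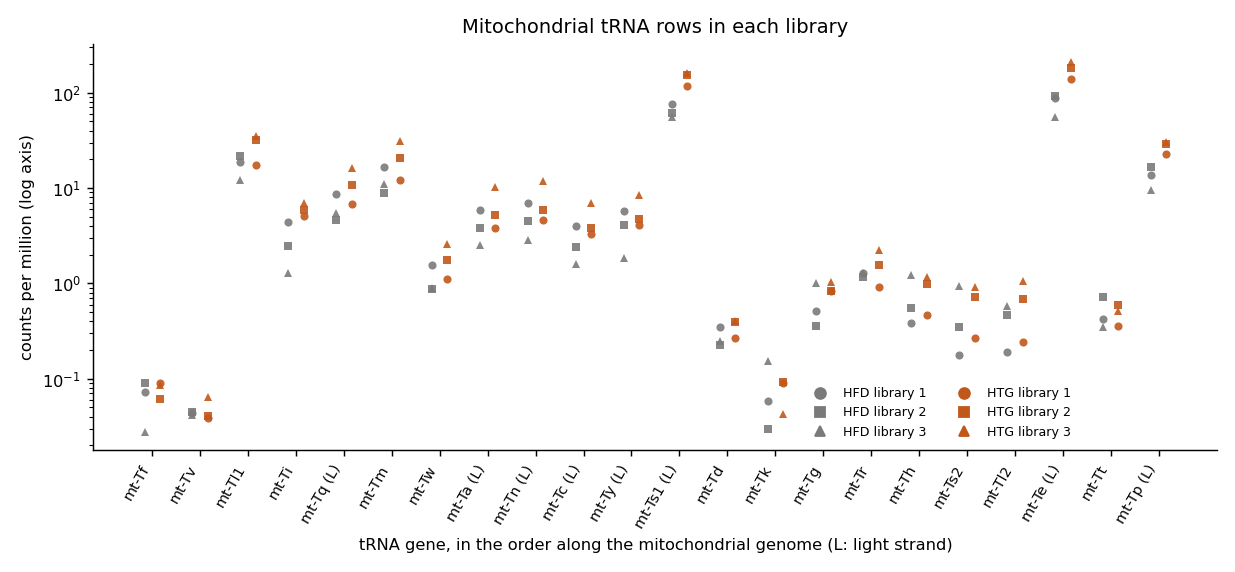
CPM (log axis) of the 22 tRNA rows in each library, in the order of the genes, with L for the light strand, HFD in grey and HTG in orange. mt-Te and mt-Ts1 stand highest with separated groups, mt-Tf, mt-Tv and mt-Tk lie lowest near the limit of counting, and most other rows overlap.

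Several mitochondrial mRNAs have counterpart rows in the nuclear genome, matched here by spacing and length. They are taken as pieces of mitochondrial DNA that were inserted into chromosomes. The table lists 7 such rows in a block on chromosome 1, whose spacing and lengths match the stretch of MT from 6381 to 11043. Gm28661, Gm10925, Gm28437, Gm28438 and Gm10222 match mt-Co2, mt-Atp6, mt-Co3, mt-Nd3 and mt-Nd4l over their whole length, with starts that differ by at most 1 base. Their counts were between 0.965 and 1.06 times those of the matching mRNA in each of the 6 libraries. Gm29216 matches the last 492 bases of mt-Co1, with 0.0593 to 0.0983 times its counts, and Gm28439 matches the first 876 bases of mt-Nd4, with 0.292 to 0.357 times its counts. Another 3 rows, Gm13339, Gm13340 and Gm13341 on chromosome 2, held at most 0.00146 times the counts of the mRNA they match. The sequences were not compared, and how the authors' counting shared reads between an mRNA and its copy is not stated.

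The 10 copies are rows apart from the mRNAs. Their summed counts equalled between 24.7% and 27.7% of the summed mRNA counts in every library, and the groups overlapped. All 10 were higher in HTG at an unadjusted p under 0.05 in edgeR, beside 12.3% of all genes tested, with a median log2 fold change of 1.251. Whether reads were divided equally between mt-Co2, mt-Atp6, mt-Co3, mt-Nd3, mt-Nd4l and their copies was not tested, so the levels of these mRNAs are uncertain. With the FPKM of the whole-length copies added, a choice made after seeing the data, mt-Atp6 came first at 18402 FPKM, before mt-Co1, and mt-Co3 and mt-Co2 came before mt-Cytb. The whole-length copies kept nearly 1 ratio to their mRNAs in every library, so adding their counts could change those fold changes little. The partial copies Gm29216 and Gm28439 had log2 fold changes of 1.27 and 1.40, beside 1.12 for mt-Co1 and 1.32 for mt-Nd4. With all chromosome 1 copies added, the median of the mRNAs was 1.21. The 5 mRNAs outside the copied stretch, mt-Nd1, mt-Nd2, mt-Nd5, mt-Nd6 and mt-Cytb, had log2 fold changes from 1.16 to 1.51 with a median of 1.31. The 8 that overlap it had 1.08 to 1.49 with a median of 1.12.

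**Figure D5:**
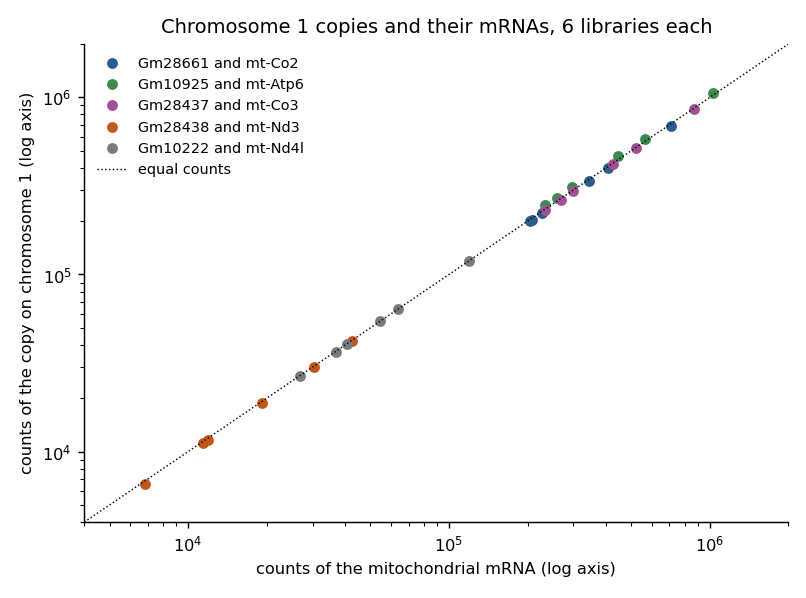
Counts of the 5 whole-length chromosome 1 copies against the counts of the mRNA each matches, 1 point per library and pair, both axes log. The points follow the dotted line of equal counts, with ratios between 0.965 and 1.06.

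The nuclear-encoded subunits of the same complexes did not share the level of difference seen in the mitochondrial mRNAs. Of 76 tested, 34 were higher and 11 were lower in HTG at an unadjusted p under 0.05 in edgeR, beside 12.3% and 12.4% of all genes tested. The lower ones were thus near the share of all genes, and the median log2 fold change was 0.29. In complex I, 19 of 37 were higher and 3 lower, with a median of 0.40 beside 1.32 for its mitochondrial subunits. In complex III, 3 of 9 were higher and 3 lower, with a median of -0.16. In complex IV, 6 of 11 tested were higher and 0 lower, with a median of 0.44 beside 1.09. In ATP synthase, 6 of 15 were higher and 3 lower, with a median of 0.21 beside 1.18. The summed CPM of these 15 was nonetheless lower in every HTG library, at 3217 ± 228 in HFD and 2319 ± 402 in HTG (mean ± SD, n = 3 each). Complex II, succinate dehydrogenase, has no mitochondrially encoded subunit, and 2 of its 4 subunits were lower and 0 higher, with a median of -0.87. Summed CPM was also lower in every HTG library for complex II. It was higher in every HTG library for complex I, and the groups overlapped for complexes III and IV.

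The subunit with the smallest p was named for each complex. Ndufa5 of complex I had 18.4, 17.4 and 17.8 CPM in HFD and 35.1, 45.5 and 32.1 CPM in HTG, a log2 fold change of 1.07 (adjusted p = 0.0538 in edgeR). Sdhd of complex II had 143, 197 and 195 CPM in HFD and 85.4, 46.7 and 56.1 CPM in HTG, a log2 fold change of -1.50 (adjusted p = 0.0550 in edgeR). These lay on opposite sides, each without overlap of the groups, which the choice by smallest p makes likely. Uqcr11 of complex III, Cox5b of complex IV and Atp5e of ATP synthase had log2 fold changes of 0.93, 0.93 and 1.35, with adjusted p between 0.0538 and 0.0553 in edgeR.

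Genes that copy, transcribe, cut or stabilise mitochondrial RNA were called about as often as genes in general. Of 50 listed genes, 49 were in the table and tested. At an unadjusted p under 0.05 in edgeR 8 were higher and 5 were lower in HTG, where 12.3% and 12.4% of all genes tested were. Of these genes 0 passed an adjusted 0.05, and the median log2 fold change was -0.08. Slirp, an RNA-binding partner of Lrpprc that stabilises mitochondrial mRNAs, had 7.96, 5.85 and 6.85 CPM in HFD and 11.6, 13.9 and 12.8 CPM in HTG, a log2 fold change of 0.89 (adjusted p = 0.0612 in edgeR). Ssbp1, which binds single-stranded mitochondrial DNA, had 25.8, 20.4 and 18.6 CPM and 33.3, 41.5 and 34.4 CPM, a log2 fold change of 0.75 (adjusted p = 0.0657 in edgeR). Both were higher in every HTG library, as was the termination factor gene Mterf1a with 1.01 (adjusted p = 0.0960 in edgeR).

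In the other direction, Grsf1, a protein of mitochondrial RNA granules, had 75.8, 95.1 and 69.0 CPM in HFD and 56.4, 41.4 and 42.8 CPM in HTG, a log2 fold change of -0.77 (adjusted p = 0.0763 in edgeR). Tfam, which packages mitochondrial DNA and starts its transcription, had 32.0, 41.2 and 33.7 CPM in HFD and 28.3, 23.5 and 19.1 CPM in HTG, a log2 fold change of -0.59 (adjusted p = 0.114 in edgeR). Gabpa, a nuclear regulator of genes for mitochondrial proteins, had -0.51 (adjusted p = 0.0871 in edgeR). All 3 were lower in every HTG library, which is again no separate result, since they were named for the smallest p. Without HTG library 2 the counts were 4 higher and 3 lower, without HTG library 3 they were 5 and 3, and without HTG library 1 they were 7 and 8. Mitochondrial DNA itself was not measured in these libraries.

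Marker genes of cell types and other features were set beside these values. The summed CPM of the 6 hepatocyte markers lay between 76356 and 95399 in HFD and between 67647 and 68747 in HTG, and 3 of them, Cps1, Ass1 and Tat, were lower at an unadjusted p under 0.05 in edgeR. The summed markers of leukocytes, endothelium, stellate cells and red cells overlapped between the groups, but some single members did not. Adgre1, a macrophage marker, had 22.1 ± 5.42 CPM in HFD and 7.64 ± 2.09 CPM in HTG (mean ± SD, n = 3 each), a log2 fold change of -1.53 (adjusted p = 0.0538 in edgeR). The other leukocyte markers overlapped, with 0.21 for Ptprc, 0.25 for Cd3e, -0.41 for Cd68 and -0.89 for Itgam. Alas2 of red cells had -0.49 (adjusted p = 0.139 in edgeR). The other red cell markers overlapped, with 0.86 for Hba-a1, 0.78 for Hba-a2, -0.50 for Hbb-bs and -0.14 for Hbb-bt. Bile duct markers summed to between 8.41 and 10.2 CPM in HFD and between 10.7 and 10.9 CPM in HTG, with Epcam at -0.95 and Sox9 at 0.79 on the log2 scale. Markers of exocrine pancreas, striated muscle and brown fat reached at most 4.95 CPM. Nuclear-retained RNAs summed to 495, 555 and 1060.3 CPM in HFD and 718, 3305 and 1721 CPM in HTG, and the groups overlapped. Neat1 supplied 2796 of the 3305 CPM in HTG library 2. The log2 fold changes were 1.77 for Neat1, 0.97 for Kcnq1ot1, 0.47 for Malat1 and -0.95 for Meg3. Kcnq1ot1 was higher and Meg3 lower in every HTG library, and the groups overlapped for Neat1 and Malat1. Median log2 fold changes of nuclear genes were 0.39 for 200 to 500 bases, 0.33 for 500 to 1000 and 0.17 for 1000 to 2000. They were 0.01 for 2000 to 4000 and -0.05 for 4000 to 8000. Among nuclear genes with a mean of at least 10 CPM these medians were 0.03, 0.29, -0.01, -0.13 and -0.12. The shortest class was then no longer the highest, but only 40 of its 588 genes were left. The mitochondrial mRNAs in the first 3 length classes had medians of 1.12, 1.24 and 1.21. The part of these features in the mitochondrial values was not tested. With scaling factors computed on nuclear genes alone, the median of the 13 mRNAs was 1.20. The nuclear copies stayed among those genes, with a mean of 1.43% of library counts in HFD and 3.23% in HTG.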

How the data were processed

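Liver RNA of 3 HFD and 3 HTG animals was analysed, grouped by the sample titles. For every gene the authors deposited, library by library, an estimated count and an FPKM value scaled by transcript length and library size. The count is a whole number, not scaled to a common library size. The submitters' processing notes name HISAT2, StringTie, SAMtools and the rat build mRatBN7.2, without versions, roles or order. The rows are mouse genes, so coordinates are those of the table, with no build assigned. Within a library, counts were proportional to FPKM times length for the 30 mitochondrial rows with a mean above 50 counts. Over all genes 4 was the most common count above 0, and how counts were derived from fragments is not stated. A count is therefore not read as 1 fragment, and counts divided by 4 were an alternative.

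Counts of all genes were fitted in edgeR 4.0.16 (R 4.3.3) with filterByExpr, TMM scaling, glmQLFit and glmQLFTest, with the group as the only term and Benjamini-Hochberg adjustment over 18455 genes. The script was tested on simulated data. The members and gene lists were chosen with earlier results of these data known. All 37 rows were accounted for. By rule, the transcription and RNA processing genes named were the 3 with the smallest p in each direction, the subunits the smallest p of each complex, and the nuclear copies those with a mean of at least 50 counts. Shares, ratios and medians over members were described without a test. The totals of 50648778 to 90563477 estimated counts per library need not equal numbers of fragments. They leave little counting error for the mRNAs, and the tRNAs with few counts are imprecise.

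Alternatives were the tool (DESeq2 1.42.0), the filter (none, or a minimum of 10 counts per library), the scaling (RLE, upper quartile, or nuclear genes alone), counts divided by 4, limma 3.58.1 on log2(FPKM + 0.1) or log2(FPKM + 1) where mean FPKM reached 1, a replicate block, omission of each library in turn, and FPKM for shares and ratios. Adding the nuclear copies to their mRNAs in the tests was chosen after seeing the data. The other measurements of the study were not analysed here.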

Additional observations from a re-analysis of the deposited data

How the results depend on the processing

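Over 17 alternatives the log2 fold changes of the 13 mRNAs lay between 0.93 and 1.65, each with an unadjusted p of at most 0.0345. Of 576 values of single genes, 547 kept their side of an unadjusted 0.05, 22 lost it, 7 gained it and no called value changed sign. The number of mRNAs at an adjusted p under 0.05, 0 in edgeR, was 13 in DESeq2, 2 with no filter, 4 with at least 10 counts in every library, 9 with counts divided by 4, and 9 in limma with either pseudocount, 0.1 or 1. It was 0 with other scalings, and 0 to 13 when each library was left out, with 13 without HTG library 1. Leaving out each library gave 1 to 2 rRNAs and 3 to 7 tRNAs higher at an unadjusted p under 0.05, 4 to 7 transcription and RNA processing genes higher and 3 to 8 lower, and 6 to 13 nuclear-encoded subunits lower. The causes were not tested.

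Libraries of the 2 groups share replicate numbers, but their deviations from the group means correlated at -0.08, -0.07 and 0.10 for numbers 1, 2 and 3, so the numbers were not taken as pairs. With the replicate block, 13 mRNAs and 2 rRNAs were again higher at an unadjusted p under 0.05, tRNAs went from 6 to 4, and the median of the mRNAs was 1.18. 3 libraries a group, few counts for most tRNAs and an unstated use of the strand limit these values.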
